A study of Mus musculus with 6 samples.

Results

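The mitochondrially encoded transcripts are the RNAs copied from the small circular genome inside mitochondria, and their 37 genes were all found among the 55401 gene IDs of the table by a mouse symbol that begins with mt-. They comprise 13 protein-coding genes, 2 ribosomal RNA (rRNA) genes and 22 transfer RNA (tRNA) genes. The libraries came from hearts of mice that had had a myocardial infarction, the loss of heart muscle after a coronary artery is blocked. In 3 of them the mice were kept in mild cold, at 16 °C for 7 days, and in the other 3 at room temperature, 22 °C. The infarct surgery, its timing, and the strain, sex and age of the mice are not given in the labels. Both groups share the heart injury, and no uninjured group is analysed here. Libraries were made from the mRNA-enriched part of total RNA that had been extracted with TRIzol.

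Mitochondrial DNA codes for subunits of complexes I, III, IV and V of the respiratory chain and for the rRNAs and tRNAs that mitochondria need to make those proteins. Every other protein of the chain, and every protein that copies, transcribes, cuts and translates this genome, is coded in the nucleus. Both DNA strands are transcribed by the mitochondrial RNA polymerase into long precursors, which are cut mainly at the tRNAs that lie between the other genes, and most of the mRNAs then receive a short poly(A) tail. Heart muscle is dense in mitochondria. Pieces of mitochondrial DNA have also been copied into nuclear chromosomes during evolution, and reads that match both places cannot be assigned by their sequence.

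That ambiguity sets which members can be read on their own, so the sequences are given before the values. GENCODE M21 transcripts were searched on both strands for stretches of mitochondrial sequence, letter for letter, and no genome coordinates are printed because M21 lies on an earlier build than the GRCm39 that the submitters' processing notes name. On chromosome 1, 7 unprocessed pseudogenes lay in the order of the mitochondrial genes, over 4663 bases against 4662 bases between the same ends on the mitochondrial chromosome, and 5 of the 6 gaps between them had the same length in both places. The most divergent stretch of this block is at its start and is shown from mt-Co1, bases 1054 to 1113 of the mitochondrial transcript, with the first 60 bases of its copy Gm29216. Capitals mark bases that differ between each gene and its copy.
mt-Co1: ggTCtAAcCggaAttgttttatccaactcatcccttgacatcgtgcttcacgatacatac
Gm29216: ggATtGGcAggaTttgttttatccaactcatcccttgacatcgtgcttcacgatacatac
These 6 differences, T1056A, C1057T, A1059G, A1060G, C1062A and A1066T, were the only ones among 492 aligned bases (mitochondrial base first, position counted from 1 at the 5′ end of the mitochondrial transcript, then the copy's base). The start of mt-Nd3 is shown because its copy, Gm28438, differed at a single base of 345, T3C.
mt-Nd3: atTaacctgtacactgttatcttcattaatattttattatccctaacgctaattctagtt
Gm28438: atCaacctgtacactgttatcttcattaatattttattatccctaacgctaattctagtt
The start of mt-Co2 is shown as the common case, with no capital, because it matched its copy Gm28661 at all 681 aligned bases.
mt-Co2: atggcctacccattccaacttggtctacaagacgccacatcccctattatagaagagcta
Gm28661: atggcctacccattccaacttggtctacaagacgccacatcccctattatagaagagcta
Gm10925, Gm28437 and Gm10222 likewise matched mt-Atp6, mt-Co3 and mt-Nd4l without a difference over 678, 783 and 294 bases, and Gm28439 matched the first 876 bases of mt-Nd4.

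Of all windows of 100 consecutive bases in a member, the share found in a nuclear transcript was 99.5% for mt-Co2, 99.5% for mt-Atp6, 99.9% for mt-Co3, 97.6% for mt-Nd3 and 98.5% for mt-Nd4l. It was 60.8% for mt-Nd4, 30.8% for mt-Co1 and 3.19% for mt-Nd2, and 0 for mt-Rnr1, mt-Rnr2, mt-Nd1, mt-Atp8, mt-Nd5, mt-Nd6 and mt-Cytb. A member was marked as likely affected by multimapping where at least 10% of its 50-base windows lay in a nuclear transcript, where it overlapped another mt- gene by at least 10 bases, or where it was under 100 bases long. The nuclear copies mark mt-Co1, mt-Co2, mt-Atp6, mt-Co3, mt-Nd3, mt-Nd4l and mt-Nd4. Overlap marks mt-Atp8 and mt-Atp6, which share 43 bases, and mt-Nd5 and mt-Nd6, which share 14 bases on opposite strands. Length marks all 22 tRNAs. Only 5 members, mt-Rnr1, mt-Rnr2, mt-Nd1, mt-Nd2 and mt-Cytb, carry no mark. The search covered annotated transcripts only, so a share of 0 or the absence of a mark does not speak to unannotated copies.

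Libraries held 42139438 to 65285901 counts in mild cold, against 41619023 to 63946671 counts at room temperature. Whether the replicates are separate animals is not stated in the labels, so each p-value refers to the spread among these 6 libraries, part or all of which may be technical. The labels call every sample a whole heart. The atrial markers Myl7 and Sln held at most 18 counts in 5 of the 6 libraries, against 28312 and 9832 counts in room temperature 1, which also held 8688 counts of the brown fat gene Ucp1. For those 5 libraries the markers go against the labelled tissue, and values that turn on room temperature 1 are also given without it.

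Mitochondrial genes held a larger part of the library in mild cold. Their share of total counts was 34.4%, 41.0% and 34.5% in the mild cold libraries (replicates 1 to 3) and 26.2%, 31.6% and 27.3% in those at room temperature. Every mild cold library lay above every room temperature library, and mild cold 2 and room temperature 2 were the highest of their groups. The means were 36.6 ± 3.80% in mild cold and 28.4 ± 2.86% at room temperature (SD, n = 3 each, as for every ± of a group), a difference of 8.27 percentage points. The 95% Wilson interval of any single library reached at most 0.0147 points to either side, so counting error was far below the spread between libraries, although it covers counting error only. The difference was 6.07 points without mild cold 2 and 7.19 points without room temperature 1. Scaled to TMM CPM (the count relative to a library total scaled by the trimmed mean of M-values, per 1e+06), the 37 genes summed to 402204 ± 62989 CPM in mild cold, against 262366 ± 47927 CPM at room temperature.

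**Figure D1:**
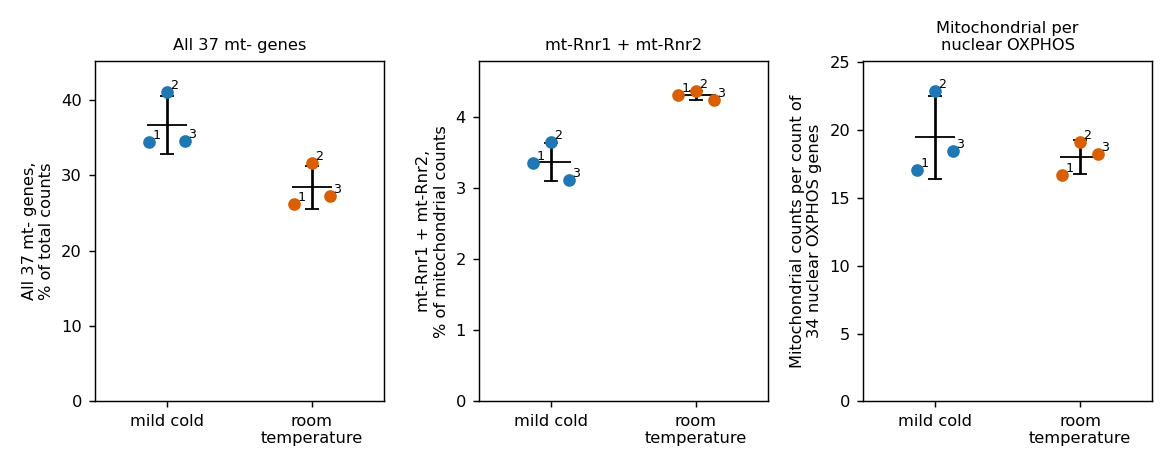
Mitochondrial counts per library in the 3 mild cold and the 3 room temperature libraries (points, numbered by replicate), with group means (wide bars) and SD (error bars): the 37 mt- genes as percent of total counts, the 2 rRNAs as percent of mitochondrial counts, and mitochondrial counts per count of 34 nuclear-encoded respiratory chain genes. The first 2 measures do not overlap between the groups, and the last one does.

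The summed levels of some cell type marker lists were separated between the groups as well. All 10 cardiomyocyte markers were tested and had a positive fold change, with 0 past edgeR's threshold, and their summed level was 43156 to 49900 CPM in mild cold, against 29298 to 42453 CPM at room temperature. None of the 8 fibroblast markers had a positive fold change, and their sum was 2124 to 3560 CPM in mild cold, against 3639 to 5749 CPM at room temperature. White fat markers (0 of 4 positive) summed to 0.161 to 94.5 CPM in mild cold, against 101 to 916 CPM at room temperature, and smooth muscle and pericyte markers (2 of 5 positive) to 1782 to 1819 CPM in mild cold, against 1440.5 to 1545 CPM at room temperature. Sums of the atrial, lymphocyte and Schwann markers were lower in mild cold without overlap. The Schwann sum was 5.25 to 6.44 CPM in mild cold, against 8.12 to 44.1 CPM at room temperature. The atrial sum was 0.878 to 1.66 CPM in mild cold. At room temperature it was 1730 CPM in replicate 1, and 2.28 and 1.99 CPM in replicates 2 and 3. Sums of the endothelial, macrophage and leukocyte, erythrocyte, skeletal muscle, brown fat, and epicardial and mesothelial markers overlapped. No marker of the cardiomyocyte and fibroblast lists was at 0 in all libraries. In bulk tissue, fewer cells of a type and less RNA per cell cannot be told apart. Mitochondrial counts per count of the cardiomyocyte markers were 7.32, 11.0 and 7.73 in mild cold and 7.92, 7.48 and 7.91 at room temperature. On that scale the groups overlapped, since mild cold 2 lay above every room temperature library while mild cold 1 lay below all 3. The difference of means was 0.913 with all libraries and −0.249 without mild cold 2. The part of the cell makeup in the mitochondrial share was not tested beyond these values.

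A second scale was the nuclear part of the same machinery, 34 nuclear-encoded subunits of complexes I, III, IV and V. Their summed level was 20666 ± 773 CPM in mild cold, against 14500 ± 1866 CPM at room temperature. Mitochondrial counts per count of these genes were 17.1, 22.9 and 18.5 in mild cold and 16.7, 19.1 and 18.3 at room temperature. These values overlapped, with a difference of 1.44 that became −0.276 without mild cold 2.

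Of the 37 members, 19 passed edgeR's expression filter and were tested among 16757 genes: the 13 protein-coding genes, both rRNAs and the tRNAs mt-Tq, mt-Tn, mt-Tc and mt-Tp. By edgeR's quasi-likelihood test with Benjamini-Hochberg adjustment over all genes, 0 members passed 0.05, as did 0.00% of all genes. The smallest adjusted p was 0.112, for mt-Tp. All 19 had a positive log2 fold change (mild cold over room temperature, below also log2 change), from 0.16 to 0.90 with a median of 0.50, beside a median of −0.016 over all genes tested. At an unadjusted p under 0.05, 9 of the 19 were higher, against 9.11% of all genes. The level did not overlap between the groups for 13 of the 19, all higher in mild cold, against 12.0% of all genes. limma-voom called 0 members, while the DESeq2 Wald test called 12 of them higher and 0 lower, against 3.91% and 4.53% of all genes. Scaling by library totals alone lowered the median of the 19 to 0.25 and that of all genes to −0.27, so the distance between them was about as large, and 18 of the 19 kept a positive sign. The exception was mt-Nd3, at −0.079.

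The rRNAs, mt-Rnr1 (12S, of the small subunit of the mitochondrial ribosome) and mt-Rnr2 (16S, of the large subunit), had the smallest fold changes next to that of mt-Nd3. For mt-Rnr1 the level was 2837, 3721 and 2885 CPM in mild cold, against 2395, 3096 and 2410 CPM at room temperature (log2 change 0.26, SE 0.18, edgeR adjusted p = 0.480). For mt-Rnr2 it was 9384, 13604 and 8525 CPM in mild cold, against 7615, 10763 and 7651 CPM at room temperature (log2 change 0.28, SE 0.25, edgeR adjusted p = 0.591). Both genes overlapped between the groups, with mild cold 2 and room temperature 2 again the highest. Without mild cold 2 the log2 fold change was 0.12 for mt-Rnr1 and 0.046 for mt-Rnr2, and without room temperature 2 it was 0.40 for mt-Rnr1 and 0.47 for mt-Rnr2. As a share of total counts the 2 rRNAs together overlapped too, at 1.24 ± 0.225% in mild cold and 1.22 ± 0.137% at room temperature.

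Within the mitochondrial counts, by contrast, the rRNAs took a smaller part in mild cold. Their share was 3.35%, 3.65% and 3.11% in mild cold and 4.31%, 4.36% and 4.24% at room temperature. The groups did not overlap, and the means, 3.37 ± 0.269% in mild cold and 4.30 ± 0.0630% at room temperature, differed by −0.935 percentage points (−0.931 without room temperature 1). Each of the 2 genes showed it. The part held by mt-Rnr1 was 0.777%, 0.783% and 0.787% in mild cold and 1.03%, 0.975% and 1.02% at room temperature. That held by mt-Rnr2 was 2.57%, 2.86% and 2.33% in mild cold and 3.28%, 3.39% and 3.22% at room temperature. Protein-coding counts per rRNA count were 28.9, 26.4 and 31.1 in mild cold and 22.2, 21.9 and 22.6 at room temperature. The ratio of mt-Rnr2 to mt-Rnr1, 3.31 ± 0.351 in mild cold and 3.28 ± 0.173 at room temperature, overlapped. The libraries were enriched for mRNA, so the counts on rRNA are what that step left, and its part in these ratios was not tested.

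**Figure D2:**
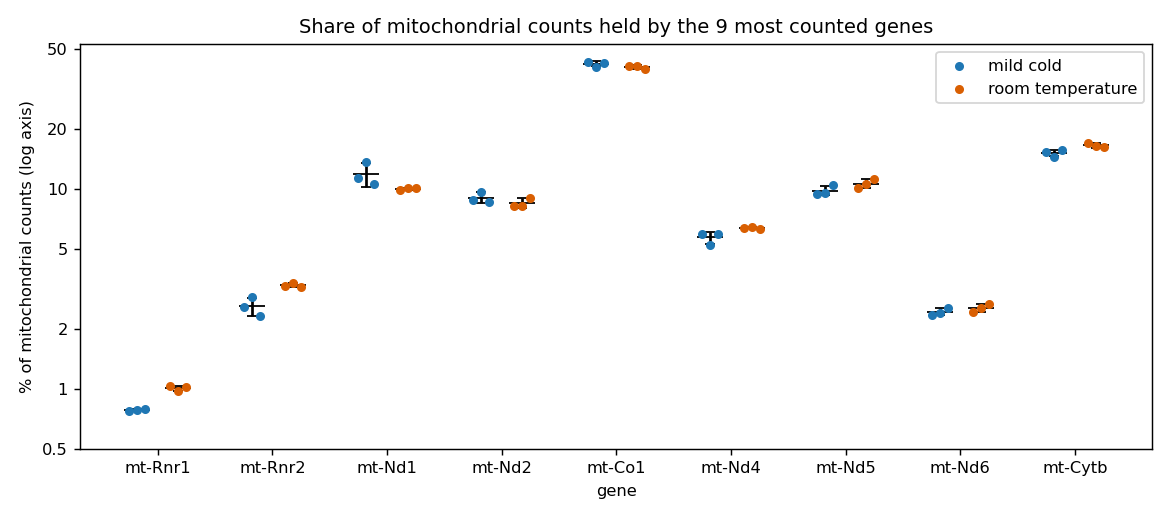
Share of mitochondrial counts (percent, log axis) held by the 9 most counted members in each library, with group means and SD. The mild cold libraries lie below the room temperature libraries for mt-Rnr1, mt-Rnr2, mt-Nd4 and mt-Cytb and above them for mt-Nd1.

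Complex I, NADH dehydrogenase, takes 7 of its core subunits from this genome, and they held 38.9 ± 1.47% of mitochondrial counts in mild cold, against 38.1 ± 1.16% at room temperature, with overlap. Of these 7, mt-Nd1 had the largest log2 fold change, and it lies just after mt-Rnr2 on the chromosome, with a tRNA gene between them. Its level was 41392, 64868 and 38726 CPM in mild cold, against 22927, 32052 and 24025 CPM at room temperature (log2 change 0.88, SE 0.30, edgeR adjusted p = 0.180). It did not overlap, nor did its share of mitochondrial counts, which was 11.3%, 13.7% and 10.6% in mild cold and 9.88%, 10.1% and 10.1% at room temperature. Counts of mt-Nd1 per count of mt-Rnr2 were 4.41, 4.77 and 4.54 in mild cold and 3.01, 2.98 and 3.14 at room temperature, a ratio of the means of 1.50. Neither gene of this ratio carries a multimapping mark.

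The next complex I gene, mt-Nd2, stood at 36667 ± 8164 CPM in mild cold, against 22216 ± 3470 CPM at room temperature without overlap (log2 change 0.72, SE 0.26, edgeR adjusted p = 0.195). Its share of mitochondrial counts overlapped, at 9.06 ± 0.568% in mild cold and 8.50 ± 0.485% at room temperature. For mt-Nd4 the log2 fold change was 0.44 (SE 0.22, edgeR adjusted p = 0.314), and its share of mitochondrial counts was lower in every mild cold library, at 5.96%, 5.27% and 5.95%, than in every room temperature library, at 6.41%, 6.45% and 6.34%. Transcribed together with mt-Nd4 as one mRNA, mt-Nd4l held 1350 to 1916 counts in mild cold, against 1046 to 1681 counts at room temperature. Per kilobase, mt-Nd4l stood at 117 ± 13.0 CPM in mild cold, against 87.8 ± 20.6 CPM at room temperature, and mt-Nd4 at 16593 ± 1357 CPM in mild cold, against 12199 ± 2320 CPM at room temperature.

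The remaining complex I genes are mt-Nd3, mt-Nd5 and mt-Nd6, of which mt-Nd6 is the only protein-coding gene on the minus strand. For mt-Nd5 the level was 39421 ± 5470 CPM in mild cold, against 27889 ± 5320 CPM at room temperature, and for mt-Nd6 it was 9753 ± 1485 CPM in mild cold, against 6649 ± 1249 CPM at room temperature (log2 changes 0.50 and 0.55, edgeR adjusted p = 0.314 and 0.218). Counts of mt-Nd6 per count of mt-Nd5, its overlapping neighbour on the other strand, were 0.247, 0.252 and 0.243 in mild cold and 0.240, 0.238 and 0.238 at room temperature. The ratio did not overlap, but its means differed by 0.00862 only, and without the strand setting of the counting the shared bases cannot be given to one gene or the other. The level of mt-Nd3 was 56.8, 67.1 and 65.0 CPM in mild cold, against 42.5, 73.3 and 53.1 CPM at room temperature, with overlap (log2 change 0.16, SE 0.19, edgeR adjusted p = 0.686). It was the smallest fold change of the 19, at −0.0069 without room temperature 1 and 0.41 without room temperature 2. That of mt-Nd4l was 0.63 without room temperature 2.

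The single mitochondrial subunit of complex III, cytochrome b, is coded by mt-Cytb, the last protein-coding gene on the plus strand. Its level was 55742, 68929 and 57586 CPM in mild cold, against 39626, 51919 and 38451 CPM at room temperature (log2 change 0.49, SE 0.25, edgeR adjusted p = 0.334). Levels did not overlap and were higher in mild cold, while its share of mitochondrial counts was lower, at 15.3%, 14.5% and 15.7% in mild cold and 17.1%, 16.3% and 16.2% at room temperature.

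Complex IV, cytochrome c oxidase, has its catalytic core coded by mt-Co1, mt-Co2 and mt-Co3. With 14.9%, 16.8% and 14.8% of all counts in mild cold and 10.8%, 13.0% and 10.9% at room temperature, mt-Co1 was the most counted gene of every library. Its level was 169957 ± 21661 CPM in mild cold, against 107266 ± 20438 CPM at room temperature (log2 change 0.66, SE 0.30, edgeR adjusted p = 0.279). Within mitochondrial counts its share overlapped, at 42.4 ± 1.16% in mild cold and 40.9 ± 0.734% at room temperature. Counts of mt-Co1 per count of mt-Cytb were 2.83, 2.83 and 2.73 in mild cold and 2.42, 2.52 and 2.47 at room temperature, without overlap. The level of mt-Co2 was 157, 230.3 and 153 CPM in mild cold, against 97.4, 126 and 111 CPM at room temperature (log2 change 0.69, SE 0.18, edgeR adjusted p = 0.128). For mt-Co3 the level was 176 ± 48.4 CPM in mild cold, against 115 ± 15.6 CPM at room temperature (log2 change 0.61, SE 0.20, edgeR adjusted p = 0.171; 0.36 without mild cold 2).

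Complex V, ATP synthase, takes mt-Atp8 and mt-Atp6 from this genome, read from one mRNA in overlapping frames. Levels were 9.56, 17.0 and 11.6 CPM in mild cold, against 6.68, 9.35 and 5.75 CPM at room temperature for mt-Atp8 (log2 change 0.81, SE 0.26, edgeR adjusted p = 0.169). For mt-Atp6 they were 128 ± 27.0 CPM in mild cold, against 83.8 ± 14.9 CPM at room temperature (log2 change 0.61, SE 0.18, edgeR adjusted p = 0.151). Neither gene overlapped between the groups, and counts of mt-Atp8 per count of mt-Atp6 did overlap, at 0.0982 ± 0.0104 in mild cold and 0.0859 ± 0.00760 at room temperature.

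Over the 19 tested members, the share of mitochondrial counts did not overlap between the groups for 7. One of them, mt-Nd1, was higher in mild cold and 6 were lower: mt-Rnr1, mt-Rnr2, mt-Nd3, mt-Nd4l, mt-Nd4 and mt-Cytb. Over all 16757 genes, the count per mitochondrial count was higher without overlap in 0.358% and lower without overlap in 56.1%, since the mitochondrial total itself was higher. Each of the 7 had an exact two-sided permutation p = 0.1, the smallest that 20 splits of 3 against 3 libraries can give, so none could reach 0.05. The share of mt-Nd3 was 0.0155%, 0.0141% and 0.0177% in mild cold and 0.0183%, 0.0231% and 0.0224% at room temperature, and that of mt-Nd4l was 0.00866 ± 0.000572% in mild cold and 0.00989 ± 0.000481% at room temperature.

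Per kilobase of transcript the 15 rRNA and protein-coding members fell into a high and a low set with the same members in both groups. The level of mt-Co1 was 110004 CPM per kilobase in mild cold and 69428 at room temperature, followed by mt-Cytb, with 53105 in mild cold and 37877 at room temperature, and mt-Nd1, with 50500.0 in mild cold and 27518 at room temperature. Then came mt-Nd2, mt-Nd5, mt-Nd6 and mt-Nd4, between 16593 and 35325 CPM per kilobase in mild cold and between 12199 and 21403 at room temperature. The rRNAs closed the high set, with 3296 CPM per kilobase for mt-Rnr1 in mild cold and 2757 at room temperature. The low set was mt-Co2, mt-Co3, mt-Atp6, mt-Nd3, mt-Nd4l and mt-Atp8, from 62.3 to 263 CPM per kilobase in mild cold and from 35.6 to 163 at room temperature. These 6 genes are neighbours on the chromosome, between mt-Co1 and mt-Nd4, and they lie within the span of the copied block. That span also holds the last part of mt-Co1 and the first part of mt-Nd4, which are in the high set. Of the 6, only mt-Atp8 has no annotated copy, and it lies where the block has a gap of 233 bases between the copies of mt-Co2 and mt-Atp6. Some genes next to each other in this order had close means, such as mt-Nd6 and mt-Nd4 (18792 ± 2861 and 16593 ± 1357 CPM per kilobase in mild cold). These SDs are between libraries and do not compare genes of the same library. In every library mt-Nd6 lay above mt-Nd4.

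**Figure D3:**
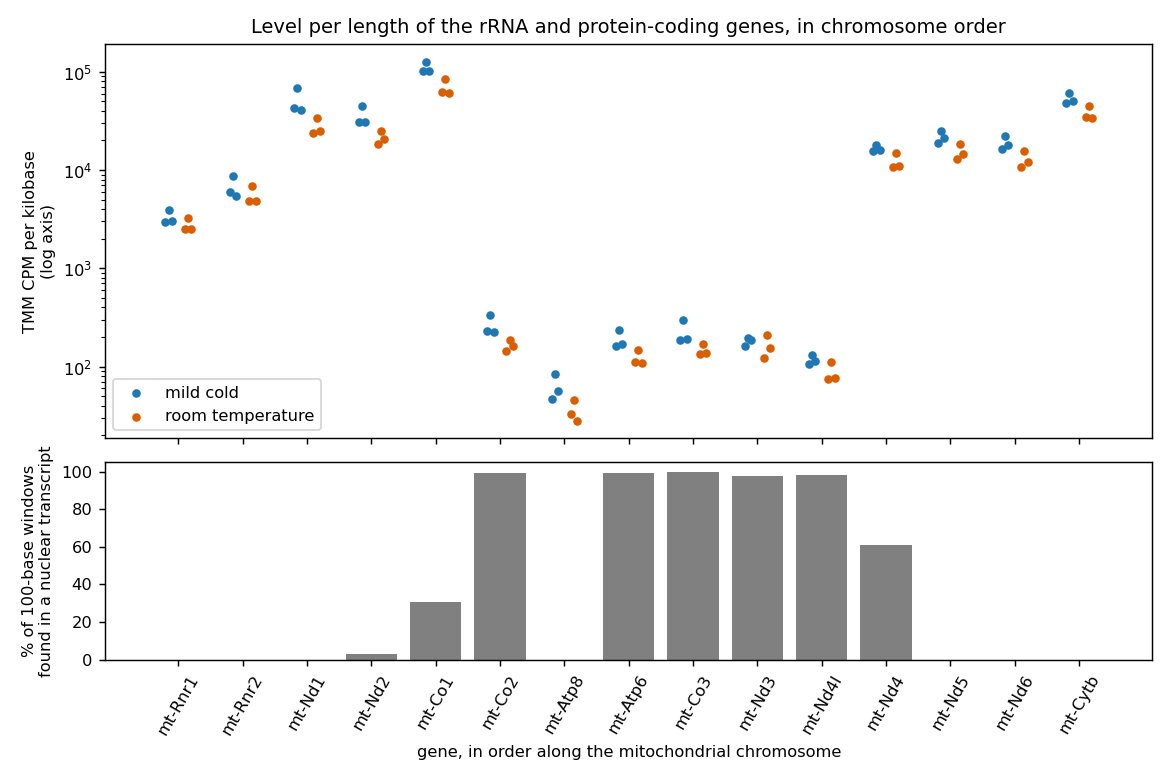
Upper panel, level per length (TMM CPM per kilobase, log axis) of the rRNA and protein-coding members in chromosome order, each point 1 library, mild cold left of room temperature. Lower panel, percent of each member's 100-base windows that occur in an annotated nuclear transcript. The low set holds the 5 genes with 97.6% to 99.9% and mt-Atp8, with 0.

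The copies themselves were counted at levels close to those of the low set. Gm28661 held 11161, 10417 and 7398 counts in mild cold, against 5279, 5153 and 9531 counts at room temperature, and mt-Co2 held 9670, 8591 and 6074 counts in mild cold, against 4577, 5260 and 8194 counts at room temperature. That is 1.15, 1.21 and 1.22 counts of the copy per mt-Co2 count in mild cold and 1.15, 0.980 and 1.16 at room temperature, for 2 sequences that no read inside them can tell apart. The sum of the 2 was still only 579 ± 144 CPM per kilobase of mt-Co2 in mild cold and 341 ± 30.7 at room temperature. Adding the copy therefore did not bring mt-Co2 near mt-Co1. What became of the other reads of these genes is not given in the sources used here and was not tested. The totals of the 7 copies were small beside the mitochondrial counts: with them added, the difference in mitochondrial share was 8.29 percentage points.

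All 7 copies on chromosome 1 had positive log2 fold changes, from 0.65 for Gm28439 to 0.99 for Gm28438. None overlapped between the groups, against 12.0% of all genes higher without overlap, but 0 passed edgeR's threshold (adjusted p at least 0.0902). The copies were at least 98.8% identical to members over the aligned bases, so their counts are not observations separate from those of the members. Each log2 fold change was above that of its own mitochondrial gene. The widest difference was at mt-Nd3, with 0.16 for the gene and 0.99 (SE 0.22, edgeR adjusted p = 0.102) for the copy that differs by T3C. Gm28438 held 1299, 1442 and 931 counts in mild cold, against 655, 589 and 1008 counts at room temperature. For mt-Nd3 itself they were 3492, 2504 and 2577 in mild cold, against 1997, 3061 and 3905 at room temperature. Counts of the copy per mt-Nd3 count were 0.372, 0.576 and 0.361 in mild cold and 0.328, 0.192 and 0.258 at room temperature, without overlap. Summed, mt-Nd3 and its copy had a log2 fold change of 0.37 (SE 0.18, edgeR adjusted p = 0.311). How reads were divided between the 2 is not known, and its part in the value for mt-Nd3 was not tested.

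**Figure D4:**
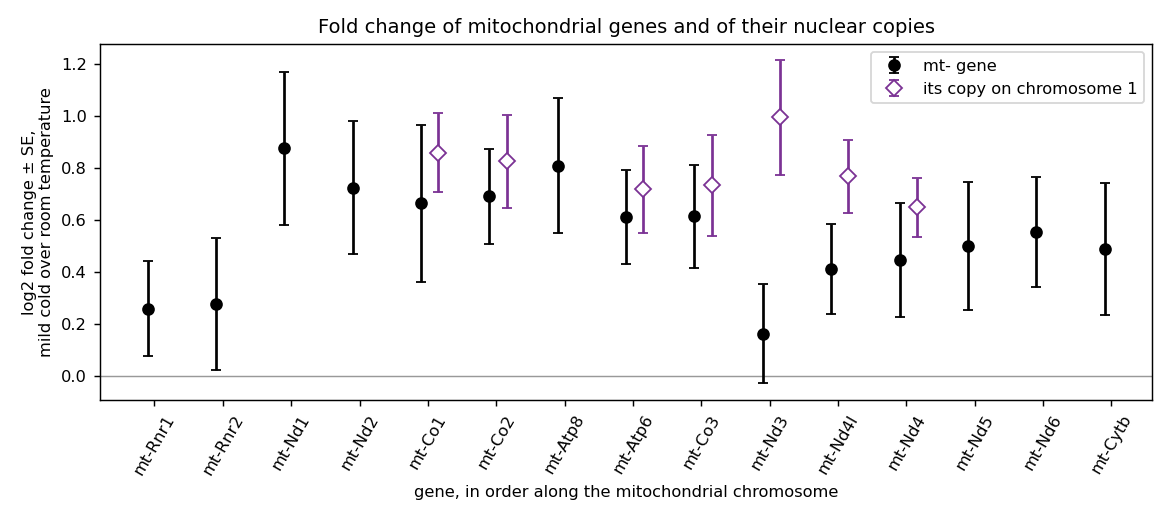
Log2 fold change, mild cold over room temperature, ± SE from edgeR, for the rRNA and protein-coding members in chromosome order (filled circles) and for their copies on chromosome 1 (open diamonds). All values are positive, and each of the 7 copies lies above its gene, most widely at mt-Nd3 (0.16 for the gene and 0.99 for the copy).

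Copies on other chromosomes were less alike. Gm13340 on chromosome 2, 97.6% identical to mt-Co1 over 1545 bases, held 5690, 5992 and 3725 counts in mild cold, against 2784, 2352 and 3715 counts at room temperature (log2 change 1.06, edgeR adjusted p = 0.0976). Also on chromosome 2, Gm13341, like mt-Co2, and Gm13339, like mt-Nd2, had log2 fold changes of 1.22 and 1.03. Gm11407 and Gm4076, like mt-Nd5, held at most 94 and 69 counts in a library, with log2 fold changes of 1.17 and 0.66. Gm20594, which shares 16 windows of 50 bases with mt-Rnr2, held 28 counts in mild cold 2 and at most 4 elsewhere. Gm10221 was listed as a copy, but it shared no 50-base window with a member (log2 change 0.46, edgeR adjusted p = 0.326).

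The fold changes also differed by place along the chromosome, a split seen in the values and given only as a description. The first 7 protein-coding genes after the rRNAs, from mt-Nd1 to mt-Co3, had log2 fold changes of 0.61 to 0.88, and the last 6, from mt-Nd3 to mt-Cytb, had 0.16 to 0.55. Counts of mt-Nd1 and mt-Nd2 per count of mt-Nd5 and mt-Cytb, which leaves out the genes marked for a nuclear copy, were 0.815, 0.971 and 0.734 in mild cold and 0.668, 0.677 and 0.701 at room temperature. The groups did not overlap, with mild cold 2 the highest and mild cold 3 close to room temperature 3. Without mild cold 2 the 2 sets of fold changes ran into each other, 0.36 to 0.61 for the first and 0.11 to 0.42 for the last.

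Few counts were assigned to the tRNAs, except for 1. Of the 22, 12 had 0 counts in every library, which allows at most 0.0460 to 0.0721 CPM per library (3 counts), and 10 had at least 1 count. That limit is on counts assigned to a gene, not on the RNA present. How reads that span a tRNA and its neighbour were counted is not known. The 8 tRNA genes on the minus strand held 54962 of the 55000 tRNA counts over the 6 libraries, and the 14 on the plus strand held 38. Almost all were on mt-Tp, the tRNA for proline, which held 95.6% to 97.7% of the tRNA counts of a library. Next to it on the other strand lies mt-Tt, the tRNA for threonine, of the same length and with 0 counts in every library, and the 2 are shown for that contrast, 5′ to 3′ from GENCODE M21, with the anticodon in capitals.
mt-Tp: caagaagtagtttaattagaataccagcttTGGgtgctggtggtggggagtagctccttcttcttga
mt-Tt: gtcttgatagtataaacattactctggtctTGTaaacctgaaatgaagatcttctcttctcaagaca
Counts of mt-Tp were 12345, 7304 and 8879 in mild cold and 7198, 6793 and 10650 at room temperature. In TMM CPM these were 201, 196 and 224 in mild cold and 153, 163 and 145 at room temperature. The groups did not overlap, and the SE was the smallest of the 19 (log2 change 0.43, SE 0.10, edgeR adjusted p = 0.112). Among the mild cold libraries, mt-Tp was lowest in mild cold 2, where the mRNAs and rRNAs were highest. A read on a gene of 67 bases can also come from a longer RNA that spans it, so these counts need not be mature tRNA.

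The other tested tRNAs were mt-Tq (glutamine), mt-Tn (asparagine) and mt-Tc (cysteine), all on the minus strand, with 8 to 18, 37 to 141 and 122 to 385 counts per library. Their log2 fold changes were 0.90 (SE 0.46, edgeR adjusted p = 0.325), 0.40 (SE 0.42, edgeR adjusted p = 0.645) and 0.37 (SE 0.28, edgeR adjusted p = 0.515). Without mild cold 1 the log2 fold change was −0.15 for mt-Tn and 0.078 for mt-Tc, without mild cold 3 it was 0.62 for mt-Tn, and without room temperature 1 it was 0.55 for mt-Tc. Levels of mt-Tn and mt-Tc overlapped between the groups. Levels of mt-Tq did not, at 0.360 ± 0.120 CPM in mild cold, against 0.189 ± 0.0171 CPM at room temperature. Of the untested ones, mt-Te held 7 to 12 counts in each library, and mt-Tl1, mt-Ti, mt-Tm, mt-Ta and mt-Ty held at most 8. Together the tRNAs made up 0.0541 ± 0.0104% of mitochondrial counts in mild cold, against 0.0615 ± 0.00811% at room temperature, with overlap.

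The nuclear genes that keep, read and process this genome had smaller median fold changes, and edgeR called 0 of the 91 tested in the next 4 lists, beside 0.00% of all genes. The DESeq2 Wald test called 3.91% of all genes higher and 4.53% lower, to set beside its calls in each list, all higher. In mtDNA replication and maintenance, 2 of 16 tested genes were higher and 0 lower at an unadjusted p under 0.05 (9.11% and 10.6% of all genes), the DESeq2 Wald test called 1, and the median log2 fold change was 0.044. The 2 were Tfam, which packages mtDNA and helps start transcription, with 44.7 ± 2.85 CPM in mild cold, against 35.3 ± 3.01 CPM at room temperature (log2 change 0.34, edgeR adjusted p = 0.143), and Ssbp1, the single-stranded DNA-binding protein (0.37, edgeR adjusted p = 0.151). Twnk, the replicative helicase, had a log2 fold change of 0.28, and Dguok and Mgme1, a nucleoside kinase and an exonuclease, 0.23 and 0.22.

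In mitochondrial transcription, 4 of 10 tested genes were higher and 0 lower at an unadjusted p under 0.05, against 9.11% and 10.6% of all genes. The median was 0.24, and the DESeq2 Wald test called 1. Mrpl12, a protein of the mitochondrial ribosome, had 92.1 ± 7.95 CPM in mild cold, against 62.0 ± 8.32 CPM at room temperature (log2 change 0.57, edgeR adjusted p = 0.0998). Tefm, the transcription elongation factor, had a log2 fold change of 0.44, Mterf4 and Mterf2 of the MTERF family 0.31 and 0.55, and Polrmt, the RNA polymerase itself, 0.17 (edgeR adjusted p = 0.615, groups overlapping).

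In RNA processing, modification, stability and decay, 43 of 45 genes were tested. At an unadjusted p under 0.05, 13 were higher and 0 lower, against 9.11% and 10.6% of all genes. The median was 0.27, and the DESeq2 Wald test called 3. Lrpprc, which stabilises mitochondrial mRNAs, had 183 ± 27.7 CPM in mild cold, against 131 ± 22.2 CPM at room temperature with overlap (log2 change 0.48, edgeR adjusted p = 0.180). Nsun4, which methylates the 12S rRNA, had 0.50, Ddx28, an RNA helicase, 0.56, Fastkd2, which binds mitochondrial RNA, 0.46, and Pnpt1, an exoribonuclease of RNA decay, 0.28. All 22 mitochondrial aminoacyl-tRNA synthetase genes, whose products load the tRNAs, were tested and had positive values. Of these, 9 were at an unadjusted p under 0.05, against 9.11% of all genes higher. Their median was 0.22, and the DESeq2 Wald test called 3 of them. Among them, Fars2 for phenylalanine had 36.6 ± 0.984 CPM in mild cold, against 24.6 ± 2.81 CPM at room temperature (log2 change 0.57, edgeR adjusted p = 0.0944), Qrsl1, of the amidotransferase that completes glutamine loading, 0.53, Yars2 for tyrosine 0.51 and Aars2 for alanine 0.45.

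The nuclear-encoded respiratory chain subunits had a higher median than those lists, close to that of the mitochondrial mRNAs. All 34 had positive values and an unadjusted p under 0.05, against 9.11% of all genes higher, and 0 passed edgeR's adjusted threshold. The DESeq2 Wald test called 32 higher, against 3.91% of all genes. Their median was 0.51, beside 0.61 for the 13 mitochondrial protein-coding genes. Cox7a1, the muscle form of a complex IV subunit, had 404 ± 47.2 CPM in mild cold, against 197 ± 19.7 CPM at room temperature (log2 change 1.04, edgeR adjusted p = 0.0813). Atp5k of complex V had a log2 fold change of 0.89, Ndufs7 of complex I 0.64 and Cox5a of complex IV 0.60. Under scaling by library totals alone, where the median of all genes was −0.27, the median was 0.26 for these 34, −0.20 for replication, −0.0060 for transcription, 0.020 for RNA processing and −0.027 for the synthetases.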

How the data were processed

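6 RNA-seq libraries from mouse heart were analysed. The deposited table holds 1 raw count for each gene and library, not normalized by the authors. featureCounts 2.0.3 and the build GRCm39 are named in the submitters' processing notes. Strand setting, aligner, annotation release and how pairs and multimapping reads were handled were not given in the sources used here. Counts of 1 to 10 were even in 71.9% to 78.3% of cases, as happens where mates are counted singly, so fragments can be fewer than counts.

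Symbols came from GENCODE M21 by ID without version, for 55141 of 55401 IDs; where 2 IDs shared a symbol, the more counted one was used. Members and gene lists were chosen with earlier results of these data known. Shares are sums of counts over library totals. The test was that of edgeR 4.0.16 under R 4.3.3 (quasi-likelihood, group only, TMM scaling, default filter by group, 16757 genes, Benjamini-Hochberg over all, threshold 0.05). Each member is accounted for; of each nuclear list, the 4 tested genes with the smallest p and Tfam, Polrmt, Twnk, Lrpprc, Ssbp1 and Pnpt1 are named, and each copy with at least 10 counts in a library. Copies were sought as exact 50-base, 100-base and 150-base windows in nuclear transcripts and aligned with Biopython 1.88. The fits were tested on simulated data. Alternatives were other scalings (DESeq2 size factors, upper quartile, library totals, nuclear counts only), filters, tests (DESeq2 1.42.0 Wald, limma-voom 3.58.1, robust edgeR), a threshold of 0.1, a replicate block, and leaving out libraries or gene classes.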

Additional observations from a re-analysis of the deposited data

How the results depend on the processing

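Of 340 alternative fold changes over the tested members, 324 kept their direction and side of the threshold, 12 passed it (all with the DESeq2 Wald test) and 4 changed sign. Those were mt-Tn at −0.15 without mild cold 1 and −0.23 without the 2 deepest libraries, and mt-Nd3 at −0.079 under library totals and −0.0069 without room temperature 1. With a library left out, mt-Tn ranged from −0.15 to 0.62 and mt-Nd3 from −0.0069 to 0.41. The number of members called was 12 with the DESeq2 Wald test and 0 in every other fit. The 4 lists of nuclear genes that keep, read and process this genome (91 tested) gave 8 calls with the DESeq2 Wald test. They gave 2 at a threshold of 0.1 and 0 otherwise. The nuclear-encoded respiratory chain subunits are not in that count. Of those 34 genes, the DESeq2 Wald test called 32 and edgeR under library totals called 1. Their smallest edgeR adjusted p was 0.0813, so some passed a threshold of 0.1. The difference in mitochondrial share ranged from 6.07 to 9.89 points when a library was left out, was 8.85 without the 2 deepest, 5.16 without the genes marked for multimapping and 8.36 without the rRNAs. The difference in rRNA share ranged from −1.07 to −0.807 points, and was −2.40 without the marked genes, whose counts then leave the denominator. Members whose share of mitochondrial counts did not overlap numbered 7, 7 to 10 with a library left out, 11 without the 2 deepest and 3 without the marked genes, where fewer genes remain. Groups of fewer libraries overlap less easily, so the higher numbers do not strengthen the result. With a library left out, the difference in mitochondrial counts per nuclear respiratory chain count ranged from −0.276 to 2.66 and per cardiomyocyte marker count from −0.249 to 1.60, the low ends without mild cold 2 and the high ends without mild cold 1. The first 7 and last 6 protein-coding genes were apart in 18 of 19 settings. That split was drawn from these same values and the settings reuse the same libraries, so this count is no test of it. The labels do not say whether the replicate numbers pair the libraries. Same-number correlations of the deviations from the group means were 0.0971, −0.173 and −0.0867 over genes. With 3 libraries per group, these values cannot exclude pairing. With the number as a replicate block, edgeR called 0 members and 0 genes of the 4 nuclear lists counted above. Adding the copies on chromosome 1, the ratio to cardiomyocyte markers, and the split along the chromosome with its ratio of counts were chosen after seeing the data. How pairs, strand and shared reads were counted could not be varied here.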
